A study of Homo sapiens with 4 samples.

Results

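ChIP-seq regions were examined at 31 human genes that are very long, lie at common fragile sites, or both. The genes were listed by name for their length or fragile-site position and not by a value measured here, although earlier results of these data were known. A region belonged to one of them when the deposited table gave it that gene's symbol. All 31 genes had at least 1 region, and together they held 303 of the 29302 regions in the table. DNAH9 and THSD7A were shorter than 500 kb and the other genes longer. The genes spanned 0.371 Mb (DNAH9) to 2.47 Mb (RBFOX1), with a median of 1.37 Mb, and added up to 43.5 Mb of the genome in the RefSeq annotation of GRCh38.p14.

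Common fragile sites are stretches of chromosome that form gaps and breaks when DNA replication is slowed. They usually hold a single very long gene that replicates late and is made almost wholly of introns, and deletions inside such genes are frequent in tumours. Many of the longest human genes are neuronal and encode adhesion molecules, receptors and synaptic scaffolds.

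The samples came from T98G, an established glioblastoma cell line, carrying either an empty vector (genotype VECTOR, pCW in the column names) or LGP2 (genotype LGP2 overexpressed), an RNA-sensing helicase related to RIG-I. All samples carried the label of the overexpression treatment, and the genotype label told them apart. Each condition had 1 ChIP library and 1 input library, that is, chromatin sequenced without the antibody step. Values were present for the 2 ChIP libraries, and the inputs were not analysed here. The sources used here give no antibody for the LGP2 library, while the vector pair appears in the study under crotonylated lysine. With 1 line and 1 library a group there were no replicates, so every difference below describes these libraries, no test between conditions could be made, and a condition and its library cannot be told apart. Values are reads per library in a window inferred to be 2 kb, recovered from the deposited read densities. Brackets hold exact 95% intervals (Clopper-Pearson for shares, Poisson for counts), which cover counting error only and may be too narrow, since PCR copies of a molecule could not be told from separate molecules. A region called in the LGP2 library alone is termed LGP2-only, and one called in the vector library alone vector-only.

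RefSeq promoter windows, from 250 bases before to 50 bases after a transcript start, were found for 27 of the 31 genes, 71 windows in all, and LRP1B, CSMD1, CSMD3 and SHANK2 had none. A region overlapped 1 of the 71 windows, that of PTPRT, and 252 of 35116 windows over the whole RefSeq table (0.718%), so overlap was rare in both. The PTPRT window is shown because it was the one overlapped, and the ERBB4 window because its nearest region was the farthest of the 71, at 402 kb. Both are printed 5′ to 3′ on the minus strand, PTPRT from chr20:43189857-43190156 and ERBB4 from chr2:212538753-212539052 (RefSeq, GRCh38.p14), with the bases inside the called region in capitals.
PTPRT: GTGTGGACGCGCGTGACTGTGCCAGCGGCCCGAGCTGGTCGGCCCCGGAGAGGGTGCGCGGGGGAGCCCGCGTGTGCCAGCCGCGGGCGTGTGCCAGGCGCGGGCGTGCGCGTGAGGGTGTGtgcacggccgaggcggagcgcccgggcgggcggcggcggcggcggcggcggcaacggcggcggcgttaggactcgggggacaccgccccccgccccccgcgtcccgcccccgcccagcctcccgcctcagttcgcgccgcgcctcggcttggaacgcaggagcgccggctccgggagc
ERBB4: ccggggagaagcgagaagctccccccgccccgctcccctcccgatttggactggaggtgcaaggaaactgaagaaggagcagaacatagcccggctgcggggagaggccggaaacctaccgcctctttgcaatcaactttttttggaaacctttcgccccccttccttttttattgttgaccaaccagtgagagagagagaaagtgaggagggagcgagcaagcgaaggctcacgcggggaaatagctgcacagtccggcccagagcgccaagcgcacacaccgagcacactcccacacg
The region that overlapped the PTPRT window, chr20:43190035-43190399, was LGP2-only, with 5 LGP2 and 2 vector reads. It covered 122 of the 300 bases, all of them before the start. The deposited table assigned it to AL021395.1, a neighbouring transcript, so it is not among the 303. The PTPRT window was 81.7% G and C and held the letters CG at 53 places, a number that 0.604% of all windows reached. The ERBB4 window was 59% G and C with 19 CG, a number that 42.9% of all windows reached. CG reads the same on both strands, and its count is a description of the letters. Over the 71 windows the median was 51.3% G and C and 7 CG, below the 58.7% and 14 of all windows. Besides PTPRT, a region came within 5 kb of a window at 6 genes. These were RBFOX1 (1.29 and 1.97 kb), DMD (2.95 kb), PDE4D (3.54 kb), AUTS2 (4.07 kb), DNAH9 (4.22 kb) and CTNNA2 (4.70 kb), and the median gap over the 71 windows was 24.7 kb.

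The regions divided almost evenly between the libraries. Of the 303, 154 were LGP2-only, 147 were vector-only and 2 were shared. LGP2-only regions made up 51.2% [45.4 to 56.9] of those called in 1 library, beside 55% over the whole table and 53.5% over all other intron regions, and the interval held both values. The chromosomes that carry the regions had a mean share of 57.1%, weighted by the regions on them, just above the upper bound of 56.9%. Over all regions inside the gene spans the LGP2-only share was 49.4% [44.9 to 53.9], a count added after the data were seen. That interval lay below 55% and held the 53.5% of other intron regions. On reads, the LGP2 library had 737 of 1588 (46.4% [43.9 to 48.9]), and over the whole table it had 48.9%, which the upper bound just reached. Inside the gene spans it had 46.8% [44.8 to 48.8], also added after the data were seen. This interval lay just below the whole table and held the 48.1% of other intron regions. A log2 ratio was taken from the 2 deposited densities, which include 1 read added to each library, and 2-fold was the threshold for higher or lower. At least 2-fold higher with LGP2 were 68 regions (22.4% [17.9 to 27.6]), where the whole table had 29.5%, and the upper bound lay below the background. Over all 500 regions inside the gene spans the share was 25.6% [21.8 to 29.7], also lower than 29.5%, which the upper bound just reached. At least 2-fold lower were 80 regions (26.4% [21.5 to 31.7]), near the background of 25.2%. The median log2 ratio was 0.13 at these regions and 0.15 over all regions. Relative to that median of all regions, 50 of the 303 were at least 2-fold higher and 95 lower. The shares over the whole table were 23.4% and 30.2%.

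**Figure D1:**
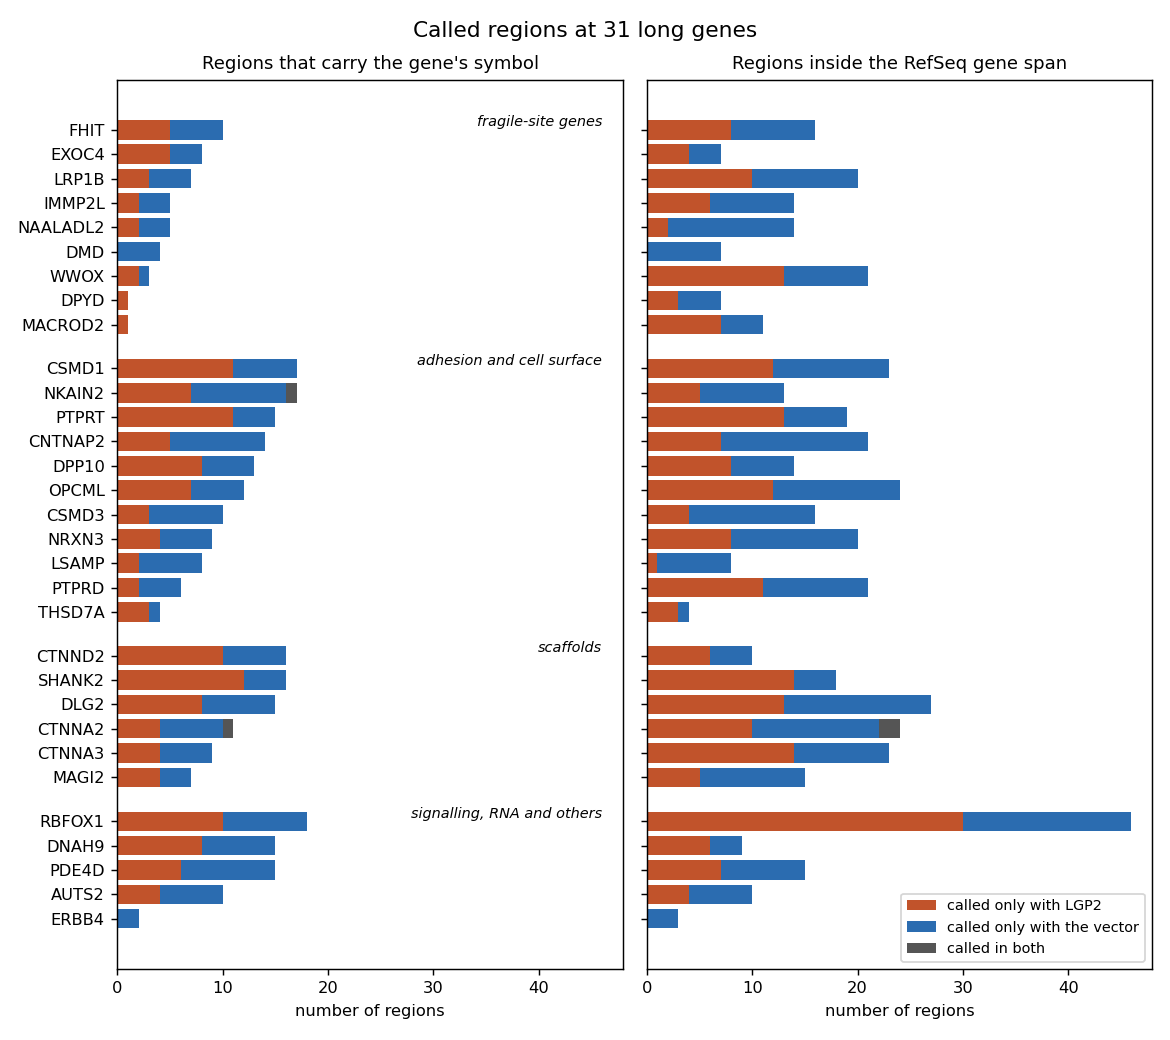
Number of regions (horizontal axes) that carry each gene's symbol (left) or lie inside its RefSeq span (right) for the 31 genes, grouped by role, with bar segments for LGP2-only, vector-only and shared regions. RBFOX1 has 18 by symbol and 46 inside its span, MACROD2 has 1 and 11, and the bars of DMD and ERBB4 are vector-only.

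The depth behind each region was small. In the 154 LGP2-only regions the LGP2 library had a median of 3 reads (2 to 8) and the vector library 1.5 (0 to 5). In the 147 vector-only regions the vector library had a median of 4 reads (2 to 9) and the LGP2 library 1 (0 to 5). The ranges of the 2 libraries therefore overlapped in both sets, and 12 of 301 regions had a ratio that pointed to the library in which they were not called. No vector read was counted at 18 of the 154 LGP2-only regions (11.7% [7.08 to 17.8]), a share below the 21.7% of LGP2-only regions over the whole table. When every region inside the 31 gene bodies was taken, whatever symbol it carried, this share was 17.1% [12.6 to 22.4] (42 of 246), and the interval held 21.7%. No LGP2 read was counted at 45 of the 147 vector-only regions (30.6% [23.3 to 38.7]), beside 33.6% over the whole table. The calling library had 5 or more reads at 73 regions (24.1%), as it did at 24.3% of all regions.

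**Figure D2:**
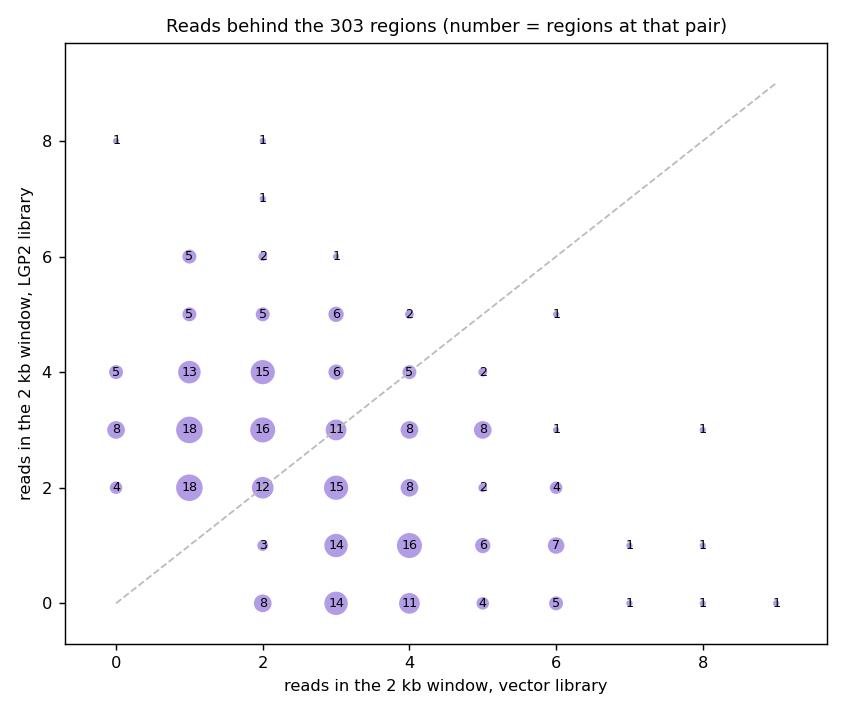
Reads in the vector library (horizontal axis) against reads in the LGP2 library (vertical axis) per 2 kb window for the 303 regions, with the number of regions printed at each pair of values, point area for that number and a dashed line at equal reads. Points lie on both sides of the line, and the extremes are CTNNA2 with 8 LGP2 and 0 vector reads and PTPRT with 0 and 9.

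Counting by symbol and counting by position gave different pictures of the same genes. The deposited table appears to name each region after the nearest transcript start, not after the gene that holds it. Of the 303 regions, 263 (86.8%) lay inside the RefSeq span of the gene whose symbol they carried. Conversely, 500 regions lay inside the 31 spans, and 237 of them (47.4% [42.9 to 51.9]) carried the symbol of another transcript, mostly noncoding RNAs and pseudogenes nested in the introns. WWOX had 3 regions by symbol and 21 inside its span, of which 6 carried AC046158.3. MACROD2 had 1 by symbol and 11 inside, DPYD had 1 and 7, PTPRD had 6 and 21, and RBFOX1 had 18 and 46. DNAH9 went the other way: 8 of its 15 regions lay in the gene, 5 lay in introns of its neighbour SHISA6 and 2 were intergenic. For 15 genes all regions with the symbol lay inside. The number of regions per gene followed length when counted inside the span (Pearson's r 0.60 and Spearman's rho 0.57 across 31 genes) and not when counted by symbol (0.10 and 0.10). These coefficients describe genes measured in the same 2 libraries and have no replicate behind them.

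**Figure D3:**
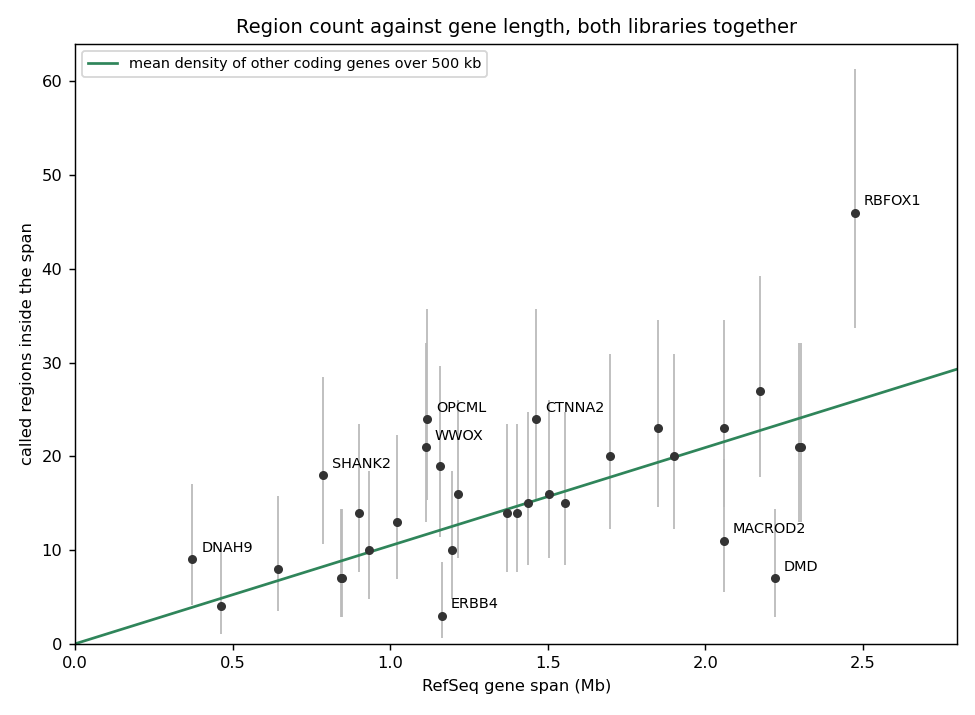
Regions inside each gene's RefSeq span (vertical axis) against the length of the span in Mb (horizontal axis) for the 31 genes, with 95% Poisson intervals as bars and a line at the mean density of other coding genes over 500 kb, 10.5 regions per Mb. RBFOX1 has 46 regions in 2.47 Mb, while DMD has 7 in 2.22 Mb and ERBB4 has 3 in 1.16 Mb.

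Per unit of length the genes were close to other coding genes. The 500 regions in 43.5 Mb gave 11.5 per Mb [10.5 to 12.5]. The other 286 coding genes over 500 kb had 10.5 per Mb [10.0 to 10.9], and the intervals overlapped. Coding genes of 100 to 500 kb had 10.1, those of 10 to 100 kb had 11.2 and those under 10 kb had 13.6 [12.3 to 15.1]. Length class thus moved the density by little, and the shortest class was the densest. Among the 31 genes the spread was wider: 24.2 per Mb in DNAH9, 22.9 in SHANK2, 21.5 in OPCML, 18.9 in WWOX, 18.6 in RBFOX1 and 16.4 in CTNNA2 had intervals above 10.5. ERBB4 at 2.58, DMD at 3.15 and MACROD2 at 5.35 had intervals below it. Single other long genes ranged from 0 to 31.2 per Mb with quartiles at 7.09 and 13.2, so all 31 genes fell within the range of other long genes.

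**Figure D4:**
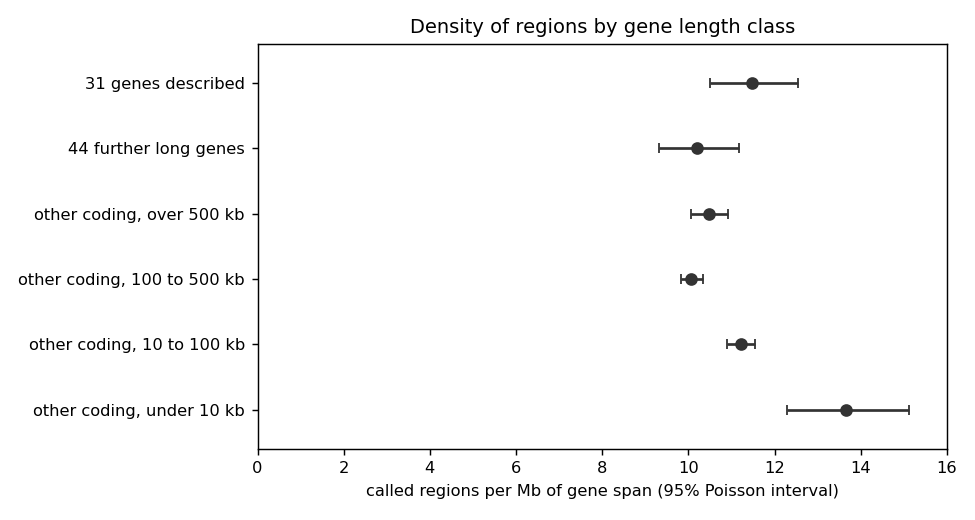
Regions per Mb of gene span (horizontal axis, points with 95% Poisson intervals as bars) for the 31 genes together, for 44 further long genes and for other coding genes by length class. The 31 genes are at 11.5, other coding genes over 500 kb at 10.5 and those under 10 kb at 13.6.

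Introns held most of the regions. The deposited annotation placed 241 (79.5% [74.6 to 83.9]) in introns, 29 (9.57%) at promoters and 28 (9.24%) between genes, with 2 in exons, 2 in 3' UTRs, 1 downstream and 0 in 5' UTRs (upper bound 1.21%). Over the whole table introns held 42.0%, and over the other regions assigned to a coding gene 47.0%, where promoters held 27.5%. These long genes are mostly intron by length, and how far that sets the share was not tested. Intron 1 held 50 of the 241 intron regions (20.7% [15.8 to 26.4]), below the 29.4% of all intron regions, and introns 1 to 3 held 49.0%, against 63.0%. Downstream introns were reached as far as intron 60 in DNAH9, an axonemal dynein gene with many exons. Intron numbers are those of the transcript given in the annotation, and regions of the same gene could be numbered on different transcripts. Of the 241, 14 lay in an intron of another transcript's gene. Along the spans, from the 5′ to the 3′ end, 4 stretches of equal length held 24.2%, 24.4%, 26.8% and 24.6% of the 500 regions. For LGP2-only regions the shares were 25.6%, 19.5%, 28.9% and 26.0%, for vector-only regions 22.2%, 29.4%, 25% and 23.4%, and the intervals of both sets overlapped in all 4 stretches.

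**Figure D5:**
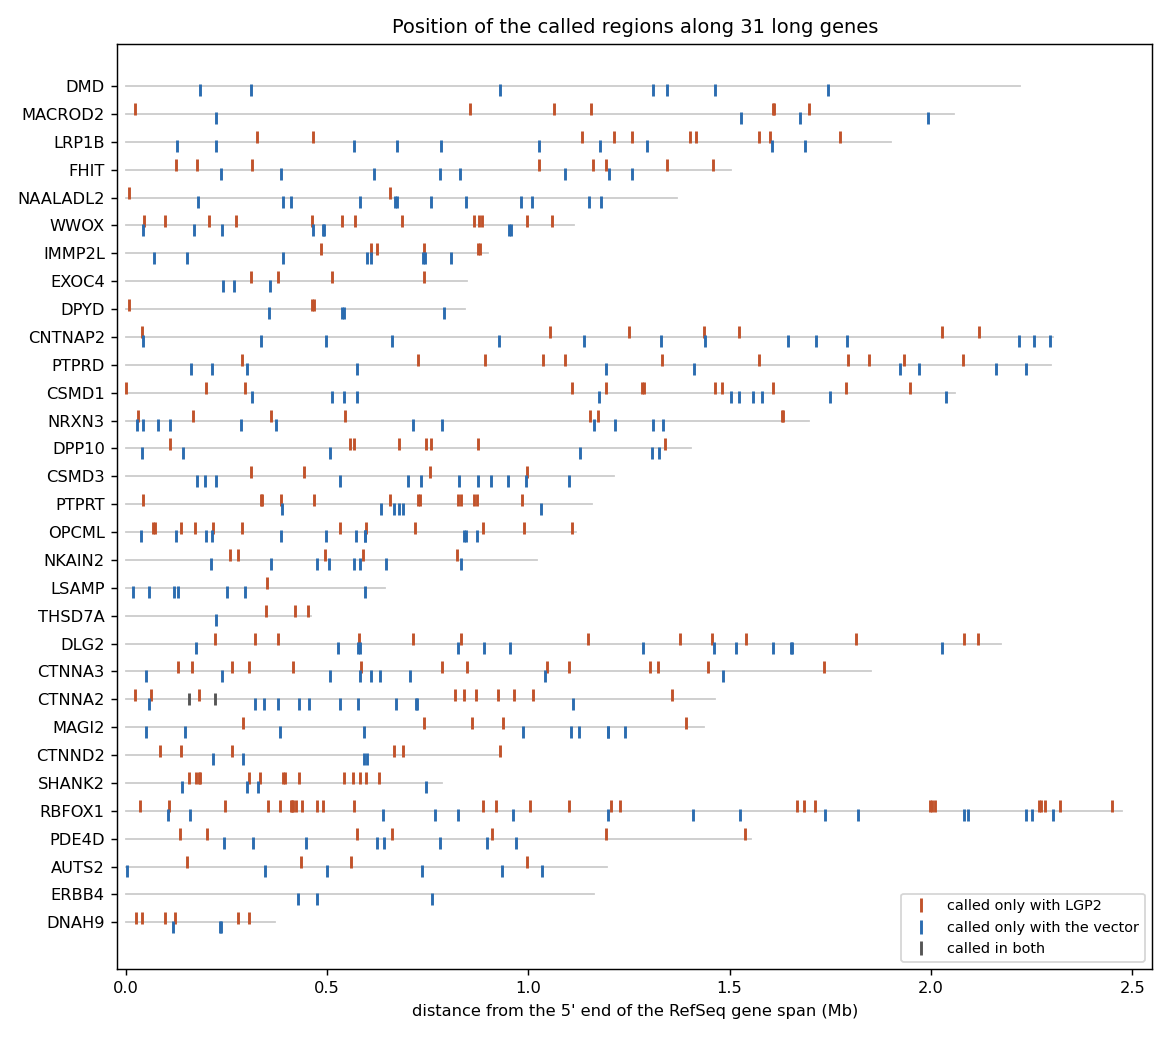
Position of the 500 regions inside the 31 RefSeq spans, as distance from the 5′ end in Mb (horizontal axis), with 1 grey line per gene as long as its span and a tick per region, coloured and offset by LGP2-only, vector-only or shared. Regions are spread along the genes, the 7 ticks of DMD and the 3 of ERBB4 are all vector-only, and MACROD2 and DMD have the longest empty stretches, 0.629 and 0.619 Mb.

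The 9 genes grouped as fragile-site genes had 44 regions by symbol (21 LGP2-only, 23 vector-only) and 117 inside their spans, at 9.17 per Mb [7.59 to 11.0]. Below, the highest and lowest ratios of a gene are those among regions with its symbol, and regions inside its span that carry another symbol can lie beyond them. Of the 44, 7 were at least 2-fold higher with LGP2 (15.9% [6.64 to 30.1], background 29.5%) and 14 lower (31.8% [18.6 to 47.6], background 25.2%), and both intervals held the background. The LGP2 library had 41.3% [34.6 to 48.2] of the reads by symbol and 45.6% [41.5 to 49.8] inside the spans, and the latter interval held the 48.9% of the whole table. FHIT, a nucleotide hydrolase and tumour suppressor, had 5 regions of each kind by symbol. Its ratio was highest at chr3:60059276-60059737 in intron 5 of 9, with 4 LGP2 and 1 vector reads, and lowest at chr3:59992755-59993420 in intron 7, with 0 and 4. WWOX, an oxidoreductase and tumour suppressor, had 3 regions with its symbol. At chr16:78142649-78142922, annotated as promoter, both libraries had 4 reads. At chr16:78145590-78145997, over an annotated start, there were 3 LGP2 and 1 vector reads. The remaining one, chr16:79159721-79160034 in intron 7 of 7, had 4 LGP2 reads [1.09 to 10.2] and 0 vector reads [0 to 3.69]. Against a floor of 3 reads per library this is 1.33-fold higher. Such a value against the floor takes no account of counting error, and the intervals of these counts overlapped.

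MACROD2, which removes ADP-ribose from proteins, had 1 region by symbol, chr20:15150447-15150707 in intron 5 of 16, called with LGP2 although it had 2 LGP2 and 4 vector reads. Inside its 2.06 Mb, 7 regions were LGP2-only and 4 vector-only, and the longest stretch without a region was 0.629 Mb. In the 1 Mb on each side of the gene, 19 regions were LGP2-only and 1 was vector-only. Chromosome 20 as a whole had an LGP2-only share of 76.9%, the highest of all chromosomes, and its part in the counts at MACROD2 and PTPRT was not tested. DPYD, the first enzyme of pyrimidine breakdown, had 1 region by symbol at chr1:97911215-97911590 in intron 1 of 22, with 3 LGP2 and 1 vector reads.

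DMD, the dystrophin gene, was called in the vector library only. All 7 regions inside it were vector-only (an LGP2-only share of 0% [0 to 41.0]). Along the gene from the 5′ end, their LGP2 and vector reads were 2 and 3, 3 and 3, 0 and 2, 0 and 4, 0 and 3, 0 and 6, and 0 and 2. No LGP2 read was counted at 5 of the 7. Over the 4 regions with its symbol, the LGP2 library had 2 of 15 reads (13.3% [1.66 to 40.5]), the same numbers as at ERBB4. The lowest ratio at DMD was at chrX:31875211-31875472, over an annotated start inside the gene, with 0 LGP2 and 6 vector reads. This is 2-fold lower against the floor of 3, and the intervals of these counts overlapped. The region nearest the 5′ end, chrX:33153702-33154086 in intron 1 of 78, had 2 and 3 reads. The X chromosome had an LGP2-only share of 40.1%, and the 1 Mb on each side of DMD held 2 LGP2-only and 6 vector-only regions. The part of the chromosome in the DMD counts was not tested.

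NAALADL2, a peptidase-like gene, had 2 LGP2-only and 12 vector-only regions inside its span (14.3% [1.78 to 42.8]), and chromosome 3 had a share of 56.4%. Its ratio was highest at chr3:174448483-174448728 in the first intron, with 3 LGP2 and 2 vector reads, and lowest at chr3:174832061-174832317, with 0 and 3. IMMP2L encodes a subunit of the mitochondrial inner membrane peptidase. Its highest region was chr7:110937198-110937599 in intron 4 of 5 (4 LGP2 and 2 vector reads) and its lowest chr7:110962210-110962650, annotated as promoter (0 and 4). LRP1B, a receptor of the LDL receptor family, had its highest and lowest regions by symbol in the same intron, 2 of 90. These were chr2:141804035-141804399 with 3 LGP2 and 1 vector reads and chr2:141562238-141562628 with 0 and 6. A region inside the span assigned to COPRSP1 was higher, with 6 and 0. EXOC4, a subunit of the exocyst that tethers secretory vesicles, had 6 LGP2 and 1 vector reads at chr7:133631180-133631482 in intron 10 of 17. It had 1 and 5 at chr7:133496122-133496563 in intron 9 of 9 of another transcript.

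The 11 genes for adhesion and other cell-surface proteins had 125 regions (63 LGP2-only, 61 vector-only, 1 shared), of which 31 were at least 2-fold higher with LGP2 (24.8%, background 29.5%) and 30 lower (24%, background 25.2%). Their LGP2 read share was 47.8% [43.9 to 51.8] by symbol and 46.2% [43.0 to 49.4] inside the spans, and their spans held 11.9 regions per Mb [10.2 to 13.8]. LSAMP and OPCML belong to 1 family of lipid-anchored neuronal adhesion proteins. LSAMP had 1 LGP2-only and 7 vector-only regions inside its span (12.5% [0.316 to 52.7]). Its highest region was chr3:116094516-116094970 in intron 1 of 6, with 5 LGP2 and 2 vector reads. By symbol its lowest was chr3:117188256-117188732, with 0 and 5, annotated as intergenic and 743 kb from the span. The RefSeq span of 0.643 Mb is shorter than the longest deposited LSAMP transcript, 1.12 Mb, so counts inside the span miss part of that transcript. Inside the span, 2 regions assigned to LSAMP-AS1 were lower, each with 0 and 6. OPCML was among the densest genes, with 12 regions of each kind inside its span. It ran from 3 LGP2 and 0 vector reads at chr11:133460280-133460648 to 0 and 7 at chr11:132937325-132937612, each in the first intron of a different transcript. The latter was 2.33-fold lower against the floor of 3, and the intervals of 0 and 7 reads overlapped.

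PTPRD and PTPRT are receptor tyrosine phosphatases. PTPRT had 13 LGP2-only and 6 vector-only regions inside its span (68.4% [43.4 to 87.4]), on chromosome 20 with its share of 76.9%. It also held the region with the lowest ratio of all 303, chr20:42801117-42801369 in intron 2 of 30. There the LGP2 library had 0 reads [0 to 3.69] and the vector library 9 [4.12 to 17.1], and the intervals did not overlap. They take no account of the choice of the lowest of 303 ratios, at a region called in the vector library, so no difference is read from them. The value was 3-fold lower against the floor. Its highest ratio was at chr20:43147373-43147631 in intron 1, with 5 LGP2 and 2 vector reads. Summed over its 15 regions by symbol, PTPRT had 47 LGP2 and 53 vector reads, so more regions were called with LGP2 while more reads were in the vector library. PTPRD ran from 4 LGP2 and 1 vector reads at chr9:8534136-8534414, annotated as promoter, to 0 and 3 at chr9:8378007-8378411 in intron 34 of 42.

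CSMD1 and CSMD3 encode large membrane proteins with complement-control domains. CSMD1 had 12 LGP2-only and 11 vector-only regions inside its span and 5 promoter regions by symbol, the most of any of the genes. Its highest region was chr8:3530288-3530539 (2 LGP2 and 0 vector reads) and its lowest chr8:3413172-3413435 (0 and 2), and the intervals of 0 and 2 reads overlap. CSMD3 had 4 LGP2-only and 12 vector-only regions inside its span (25% [7.27 to 52.4]), while its chromosome had a share of 55.7%. Its ratio ran from 6 LGP2 and 1 vector reads at chr8:113125268-113125548 in intron 5 of 71 to 0 and 5 at chr8:112735662-112735937 in intron 14. DPP10, an auxiliary subunit of A-type potassium channels, had the highest LGP2 read share of the genes with 10 or more regions, 34 of 53 reads (64.2% [49.8 to 76.9]), and 61.0% [47.4 to 73.5] inside its span. Its highest region, chr2:115009178-115009539 in intron 1, had 4 LGP2 and 0 vector reads, and its lowest, chr2:114950749-114951066 in the same intron, had 0 and 3.

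CNTNAP2, a neurexin-like protein of myelinated axons, had 7 LGP2-only and 14 vector-only regions inside its span. It ran from 5 LGP2 and 1 vector reads at chr7:148143687-148143975 in intron 16 of 23 to 1 and 5 at chr7:147044376-147044856, annotated as promoter. NRXN3, a presynaptic neurexin, had equal read totals by symbol, 22 in each library. Its highest region lay between genes at chr14:78132032-78132316 (3 LGP2 and 0 vector reads) and its lowest in intron 2 of 19 at chr14:78250446-78250973 (0 and 4). NKAIN2, which binds the sodium pump, held 1 of the 2 shared regions, chr6:124837723-124838564, with 3 LGP2 and 5 vector reads, 12.5 kb outside its RefSeq span. Within the gene it ran from 3 and 0 at chr6:124627014-124627386 in intron 3 of 6 to 0 and 4 at chr6:124164827-124165407 in intron 1. THSD7A, a thrombospondin-type membrane protein, had 4 LGP2 and 1 vector reads at chr7:11482990-11483450 and 0 and 5 at chr7:11607277-11607582 in intron 2 of 27.

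The 6 genes for junction and synaptic scaffolds had 74 regions (42 LGP2-only, 31 vector-only, 1 shared), the highest density of the 4 groups at 13.5 per Mb [11.2 to 16.2], and an LGP2 read share of 49.8% [44.8 to 54.7]. At least 2-fold higher with LGP2 were 16 of them (21.6%, background 29.5%) and 14 were lower (18.9%, background 25.2%). Inside the spans the read share was 48.3% [44.2 to 52.3]. At SHANK2, a postsynaptic scaffold, the LGP2 library had 69 reads and the vector library 45 over its 16 regions (60.5% [50.9 to 69.6]), while inside its span the share was 56.2% [47.2 to 65.0], an interval that held the 48.9% of the whole table. Inside its span 14 regions were LGP2-only and 4 vector-only (77.8% [52.4 to 93.6]), on chromosome 11 with a share of 59.4%. The 1 Mb on each side held 23 LGP2-only and 8 vector-only regions, so LGP2-only regions were also the more frequent around the gene. Its highest region was chr11:71068198-71068716 in intron 8 of 24, with 6 LGP2 and 1 vector reads, and its lowest was chr11:70922989-70923275 in intron 9, with 3 and 5. A region at the gene's end, chr11:70465707-70466002, was annotated as downstream and had 6 and 2 reads.

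CTNNA2 and CTNNA3 are alpha-catenins, which link cadherins to actin, and CTNND2 is a neuronal delta-catenin. CTNNA2 held the highest ratio of all 303 regions at chr2:79249687-79250153 in intron 2 of 21. There the LGP2 library had 8 reads [3.45 to 15.8] and the vector library 0 [0 to 3.69], 2.67-fold higher against the floor, and the intervals overlapped slightly. In the same intron, chr2:79244171-79244429 had the lowest ratio with the gene's symbol, 1 LGP2 and 6 vector reads, and a region inside the span assigned to CTNNA2-AS1 was lower, with 0 and 5. CTNNA2 also held a shared region, chr2:79343700-79344254 in intron 3, with 3 and 2 reads. CTNNA3 ran from 4 LGP2 and 0 vector reads at chr10:67598026-67598346 in intron 3 of 17 to 0 and 2 at chr10:67132118-67132367 in intron 7. CTNND2 had 3 and 1 reads at chr5:11638556-11639019 and 0 and 8 at chr5:11686190-11686455, both in intron 2 of 21. The latter was 2.67-fold lower against the floor, and the intervals of 0 and 8 reads overlapped slightly.

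DLG2, a membrane-associated guanylate kinase of the postsynaptic density, ran from 5 LGP2 and 1 vector reads at chr11:84915178-84915588 in intron 1 of 22 to 0 and 4 at chr11:84166183-84166473, annotated as promoter. MAGI2, of the same class of scaffolds, had 4 and 1 reads at chr7:78516572-78516891, annotated as promoter, and 0 and 4 at chr7:78213573-78213876 in intron 10 of 21. Both 3' UTR regions were in MAGI2, chr7:78255048-78255396 and chr7:78255771-78256379, each with 2 LGP2 and 6 vector reads. They lay 853 bp apart, so their 2 kb windows overlapped and the 6 reads need not be different reads.

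The 5 remaining genes had 60 regions (28 LGP2-only, 32 vector-only), of which 14 were at least 2-fold higher with LGP2 (23.3% [13.4 to 36.0], background 29.5%) and 22 lower (36.7% [24.6 to 50.1], background 25.2%). Inside the spans the balance of calls was the opposite, 47 LGP2-only and 36 vector-only, and RBFOX1 alone held 30 and 16 of these. Of the other genes, ERBB4 (0 and 3), PDE4D (7 and 8) and AUTS2 (4 and 6) had more vector-only regions and DNAH9 (6 and 3) more LGP2-only. The LGP2 read share was 42.7% [37.2 to 48.3] by symbol and 47.6% [42.8 to 52.4] inside the spans. ERBB4, a neuregulin receptor, had the lowest density of the 31 genes. Its 3 regions were all vector-only. Those with its symbol lay in intron 1 of 25, at chr2:212062145-212062508 with 1 LGP2 and 5 vector reads and at chr2:212111542-212111872 with 1 and 8. The other region inside the gene, assigned to MTND2P23, had 2 and 6 reads. The 1 Mb on each side held 6 LGP2-only and 13 vector-only regions, and chromosome 2 had a share of 55.6%.

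RBFOX1, a neuronal splicing regulator, was the longest gene and had the most regions, 30 LGP2-only and 16 vector-only inside its span (65.2% [49.8 to 78.6]), on chromosome 16 with a share of 62.0%. By symbol its ratio ran from 3 LGP2 and 0 vector reads at chr16:6445104-6445430 to 0 and 5 at chr16:7541926-7542254 in intron 8 of 19. By symbol alone the division was 10 to 8, so most of the LGP2-only regions inside carried other symbols, MIR8065 with 7 regions the most frequent of them. PDE4D, a cyclic AMP phosphodiesterase, had 4 and 1 reads at chr5:58983065-58983468 in intron 11 of 14 and 0 and 4 at chr5:59625368-59625622 in intron 1. AUTS2, a nuclear protein of neuronal development that acts with Polycomb complexes, ran from 4 and 2 at chr7:70596406-70596868, annotated as promoter, to 1 and 7 at chr7:70098259-70098592 in intron 2 of 18. DNAH9, a dynein heavy chain of cilia, had 4 LGP2 and 0 vector reads at chr17:11695458-11695748 in intron 22 of 68. Its lowest region, chr17:11480166-11480823 with 0 and 6, lay in SHISA6 and 118 kb before DNAH9.

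Promoter labels in the deposited table reach up to 3 kb from the start of any annotated transcript, and 28 of the 29 labelled regions lay more than 3 kb from the 5′ end of the RefSeq span. A region covered an annotated start base at WWOX, DMD and CSMD1. The CSMD1 region, chr8:4994433-4994739, lay at the 5′ end of the gene and had 3 LGP2 and 2 vector reads. The other promoter regions of CSMD1 had 3 and 1, 2 and 4, 3 and 1, and 4 and 1 reads, and that of CSMD3 had 1 and 4. The remaining promoter regions not given above were 2 and 3 reads at AUTS2, 2 and 1 at CNTNAP2, 2 and 0 at one and 1 and 3 at the other region of CTNNA3, and 3 and 2 at DNAH9. These were low counts in both libraries at genes of every group. EXOC4 had 2 and 1 reads at one region and 3 and 1 at the other, RBFOX1 had 0 and 3 at one and 4 and 1 at the other, and SHANK2 had 2 and 2 at one and 4 and 2 at the other. LRP1B had 2 and 1, LSAMP 0 and 3 and THSD7A 5 and 3. Both exon regions were vector-only, at LRP1B with 1 and 4 reads and at DNAH9 with 1 and 3. None of these regions exceeded 6 reads in either library.

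Regions of opposite calls could lie side by side. In 8 pairs of neighbouring regions the distance was under 2 kb, so that their inferred windows overlapped and could hold the same reads, and in 5 pairs 1 region was LGP2-only and the other vector-only. At IMMP2L the pair was 410 bp apart, with 3 and 3 reads at the vector-only region and 3 LGP2 and 4 vector reads at the LGP2-only one. At OPCML an LGP2-only region with 3 and 2 reads lay 1040 bp from a vector-only region with 1 and 6. Within single genes the calls were likewise mixed. Both kinds of region were present by symbol at 27 of the 31 genes, 15 had more LGP2-only and 15 more vector-only regions, and FHIT had equal numbers. On reads by symbol, 23 genes had more in the vector library, 7 more in the LGP2 library and NRXN3 equal numbers. The vector library also had more reads over the whole table, where the LGP2 share was 48.9%. Inside the spans the balance was reversed at some genes, toward LGP2 at MACROD2 and toward the vector at DPYD. By symbol, the read-share interval lay above the 48.9% of the whole table at SHANK2 and DPP10 and below it at DMD and ERBB4. Inside the spans it lay above at none and below at DMD, ERBB4, LSAMP (26.8% [14.2 to 42.9]), NAALADL2 (34.8% [23.7 to 47.2]), MAGI2 (36.8% [26.7 to 47.8]) and OPCML (39.4% [30.8 to 48.4]), so only DMD and ERBB4 were apart on both counts. For calls inside the spans, the interval lay below 55% at DMD, LSAMP, NAALADL2 and CSMD3 and above it at none of the 31. The DMD interval [0 to 41.0] held the 40.1% of the X chromosome, and those of LSAMP, NAALADL2 and CSMD3 lay below the shares of their chromosomes.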

How the data were processed

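ChIP-seq of T98G cells with an empty vector or overexpressed LGP2 gave 1 deposited table of 29302 regions. For each region the authors deposited a normalized read density (signal) per ChIP library and the calling library. They also gave an assigned transcript with the distance to its start, and the part of the gene model. Further columns hold the authors' log2 ratio, mean log2 level and unadjusted p-value, which were not used. The sources used here do not give the aligner, the region caller, its threshold or the tool behind the normalization. The labels name the mouse build mm10, but 99.2% of 12404 coding rows with a RefSeq symbol overlapped that gene in human GRCh38.p14, and coordinates are read as GRCh38. No other per-sample columns were left unused (0).

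Reads were recovered from the 2 densities, with 1 read added to each library and a straight line in the mean log2 level removed (intercept 0.105, slope 0.0452), and were whole within 0.001 in 100% of regions. The 2 kb window was inferred from the scale. The regions hold 73695 LGP2 and 77095 vector reads, and how many reads each library had in all is unknown. Log2 ratios were computed from the densities. Bodies, lengths and promoter windows came from RefSeq, and chromosome shares from all regions. Python 3.11.15, pandas 2.3.3, numpy 2.4.6 and scipy 1.17.1 were used, and the read recovery was tested on simulated data. All 31 genes were counted. Named were all regions of genes with 1 to 3 regions, the highest and lowest ratio of each other gene, promoter, exon, UTR and downstream regions, shared regions and the 5 largest ratios each way. The genes and lists were chosen with earlier results of these data known. Other settings tried were another assignment of regions to genes, depth, threshold, added reads, centring and scaling.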

Additional observations from a re-analysis of the deposited data

How the results depend on the processing

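No paired analysis was possible because each group had 1 library and no result comes from a test. Taking all regions inside the RefSeq spans gave 500 regions in place of 303, an intron share of 89.6% in place of 79.5%, an LGP2-only share of 49.4% and an LGP2 read share of 46.8%, the last 2 chosen after the data were seen. With at least 5 reads in the calling library, 73 regions, 2.60 per Mb (other long genes 2.41), an LGP2-only share of 40.3% (all regions 48.3%) and a read share of 41.7% (all regions 46.6%) remained. The density of 11.5 per Mb became 17.1 with the longest deposited transcript as length and 6.32 with regions by symbol outside intergenic sequence. Scaling by reads at the other library's regions put the read share at 54.7% (all regions 57.2%). The 68 higher and 80 lower regions became 7 and 8 with 5 reads added (3.26% and 1.51% of all regions) and 29 and 46 at 3-fold (15.4% and 14.4% of all regions). Leaving out RBFOX1 gave 11.1 per Mb and shares of 50.9% of regions and 46.3% of reads. Leaving out intergenic regions gave 275 regions and an LGP2-only share of 49.5%. A region held a median of 5 reads over both libraries, so differences of a few reads were not detectable at single regions.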

Other observations

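A further 44 long genes, 10 of them at other common fragile sites and the rest mostly neuronal, were counted in the same way. By symbol 42 of them had a region, 238 in all, with 124 LGP2-only and 114 vector-only (52.1% [45.6 to 58.6]), and 83 were at least 2-fold higher with LGP2 (34.9% [28.8 to 41.3], all regions 29.5%) and 64 lower (26.9% [21.4 to 33.0], all regions 25.2%). Inside their spans lay 474 regions, at 10.2 per Mb [9.31 to 11.2], and single genes ran from 0.73 to 17.6 per Mb. ROBO2, an axon guidance receptor, held 19 regions, and LRRC4C, a synaptic adhesion gene, held 18.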
